A study of Mus musculus with 48 samples.

Results

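The genes described here were the clock output transcription factors Dbp, Tef and Hlf, Nfil3, Nr1d1, Nr1d2, Bhlhe40 and Bhlhe41, together with Tmem252, in NeuroD1-positive enteroendocrine cells of the mouse gut. They were 9 genes of the 53465 in the count table and of the 15126 genes tested, and all 9 passed the filter on low counts. They were chosen by measured values of these same libraries, namely their log2 fold changes between mice with a vertical sleeve gastrectomy (VSG) and sham-operated weight-matched mice. That difference, and the comparisons that share its libraries, are therefore given as a description, with standard errors and counts past a threshold but no p-value for a single gene.

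Lean chow-fed male Neurod1-cre-eYFP mice on a C57BL6 background, aged about 20 weeks at surgery, contributed 48 libraries from 17 animals. VSG mice had most of the stomach excised, and sham mice fed ad libitum underwent laparotomy with a loose suture. Sham weight-matched mice had the same sham operation. They were then given rationed chow in divided daily portions, so that their body weight followed that of the VSG group. The mice had all received a liquid diet around surgery. At 6 weeks after surgery they were fasted overnight and killed about 15 min after a glucose gavage of 3 g/kg. The top 5 cm of the small intestine (duodenum), its last 15 cm (ileum) and the colon with rectum (colon) were each represented by 6 libraries from VSG mice and 5 from either sham group. Cells were sorted on a reporter switched on by Neurod1-driven Cre, so every cell with a history of Neurod1 expression carried the label. The time of day at which each mouse was killed is not given in the sources used here.

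In the circadian clock, the activators BMAL1 (the product of Arntl) and CLOCK or NPAS2 bind E-boxes and switch on the genes of their own repressors, together with a layer of output transcription factors. DBP, TEF and HLF are PAR bZIP proteins that activate genes through D-box elements, and NFIL3 (E4BP4) is a bZIP repressor that competes for the same elements. REV-ERBα and REV-ERBβ, encoded by Nr1d1 and Nr1d2, are nuclear receptors that repress Arntl, Npas2 and Nfil3. DEC1 and DEC2, encoded by Bhlhe40 and Bhlhe41, are repressors that bind E-boxes, and Tmem252 encodes a transmembrane protein. In intestine and liver, PAR bZIP and Rev-erb transcripts cycle over the day, and the timing of food intake is a known cue for this rhythm.

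Total counts per library ranged from 4648651 to 17182463. The sorted-cell label was checked against 6 enteroendocrine markers (Neurod1, Chga, Chgb, Scg2, Pax6 and Isl1), whose summed level was 11290 to 98550 counts per 1000000 (CPM) over the 48 libraries. Chga and Chgb made up most of this sum, so it hides differences of the others between regions. From duodenum to colon, mean Scg2 went from 1092 to 31.6 CPM, Isl1 from 112 to 10.5, Pax6 from 156 to 49.5 and Neurod1 from 660 to 255. Chga went from 17270 to 21930 CPM and Chgb from 31930 to 30200 CPM. The sham weight-matched duodenum library of mouse 27 stood apart: it had the lowest enteroendocrine sum, 11290 CPM, and the highest sum of 7 enterocyte markers, 36940 CPM, against 4925 to 6245 CPM in the other 4 libraries of its group. Some of the results that use this library are given with and without it, and the rest with it only. For mouse 12, the labels of its ileum and of its colon library contradict each other, since the code in the description names the other tissue, and the tissue field was followed. By that field, the enterocyte sum of mouse 12 was 6951 CPM in the ileum and 434 CPM in the colon. VSG mice had 3450 to 12020 CPM in the ileum and 233 to 538 CPM in the colon, so the marker sums go with the tissue field. As in any bulk sample, a lower value may reflect fewer cells of a type or less RNA per cell, and these cannot be told apart here.

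Because several of these genes moved together, the RefSeq promoter windows (GRCm38.p6, 250 bases before to 50 after each annotated start, 9 windows of 8 genes) were searched on both strands for the E-box CACGTG, the D-boxes TTATGTAA and TTACGTAA, the half-site TAGGTCA of REV-ERB and ROR receptors, and the longer RORE, in which an A and 2 free bases precede this half-site. An E-box was found in both Tef windows and in the Bhlhe41 window, and 7.15% of all 32851 windows held one. The half-site was found in the Nfil3 window, on the strand opposite to the gene, and in 2.61% of all windows. Neither D-box (0.938% and 0.119% of all windows) nor the full RORE (0.70% of all windows) was found in any of the 9. These are matches of letters in a short window and do not show binding. The stretches are printed 5′ to 3′ on the strand of the gene, cut to bases before the start and outside annotated exons, or to 30 bases around a match that lay in an annotated exon. Capitals mark the match, and the Nr1d1 and Dbp stretches, of the genes with the largest falls among the 6 that passed, are shown for comparison without one.
Tef chr15:81802534-81802563, plus strand: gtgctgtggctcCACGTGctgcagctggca
Tef chr15:81811164-81811413, plus strand: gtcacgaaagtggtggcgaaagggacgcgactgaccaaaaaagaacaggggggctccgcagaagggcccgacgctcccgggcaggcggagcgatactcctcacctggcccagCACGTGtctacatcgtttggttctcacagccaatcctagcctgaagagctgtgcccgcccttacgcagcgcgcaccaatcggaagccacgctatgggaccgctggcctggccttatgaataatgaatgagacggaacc
Bhlhe41 chr6:145865559-145865670, minus strand: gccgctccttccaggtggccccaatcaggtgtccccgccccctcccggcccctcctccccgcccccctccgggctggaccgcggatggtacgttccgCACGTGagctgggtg
Nfil3 chr13:52981033-52981062, minus strand: gcgctcggaacTGACCTActaacacacatc
Nr1d1 chr11:98775378-98775627, minus strand: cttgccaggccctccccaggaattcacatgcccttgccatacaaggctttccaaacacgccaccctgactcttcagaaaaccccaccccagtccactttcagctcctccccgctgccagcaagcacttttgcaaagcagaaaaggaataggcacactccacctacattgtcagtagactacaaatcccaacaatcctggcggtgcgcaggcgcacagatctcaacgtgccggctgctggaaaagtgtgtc
Dbp chr7:45704997-45705087, plus strand: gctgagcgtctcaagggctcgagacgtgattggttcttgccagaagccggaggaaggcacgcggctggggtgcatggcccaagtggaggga

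Dbp was low in VSG mice and high in weight-matched mice in every region. In the duodenum, Dbp was 9.15, 5.55, 8.52, 8.19 and 7.65 CPM in the 5 sham ad libitum libraries, 16.1, 18.1, 39.5, 12.6 and 19.98 CPM in the 5 sham weight-matched libraries and 5.41 to 10.9 CPM with a median of 7.81 CPM in the 6 VSG libraries. In the ileum, it was 12.1, 7.03, 5.74, 5.05 and 11.1 CPM in the 5 sham ad libitum libraries, 24.5, 26.9, 22.9, 16.2 and 26.6 CPM in the 5 sham weight-matched libraries and 4.57 to 12.4 CPM with a median of 6.83 CPM in the 6 VSG libraries. In the colon, it was 36.5, 34.1, 25.4, 19 and 22.2 CPM in the 5 sham ad libitum libraries, 67.2, 74.7, 124, 61.6 and 58.02 CPM in the 5 sham weight-matched libraries and 12.6 to 32.7 CPM with a median of 21.4 CPM in the 6 VSG libraries. Each weight-matched library was thus above each VSG and each ad libitum library of its region, while VSG and ad libitum libraries overlapped in all regions. Averaged over the 3 regions, the log2 fold change of Dbp was -1.62 ± 0.15 (SE) for VSG against weight-matched mice, 1.48 ± 0.16 for weight-matched against ad libitum mice and -0.14 ± 0.16 for VSG against ad libitum mice. Without the duodenum library of mouse 27, the first of these was -1.50 ± 0.14 and the second 1.36 ± 0.15.

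**Figure D1:**
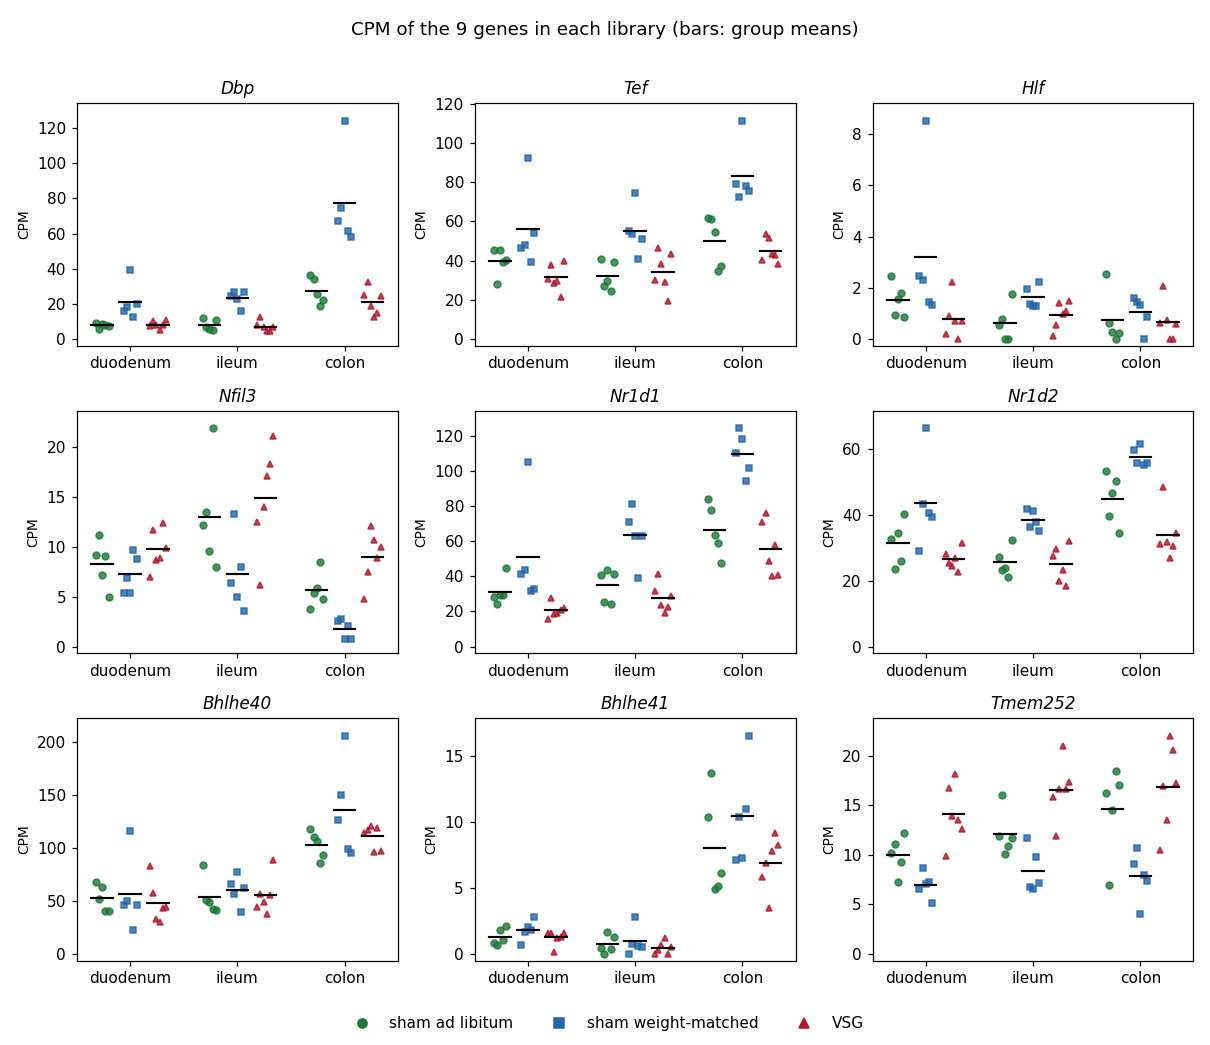
CPM (vertical axis, linear) of each of the 9 genes in each of the 48 libraries, by region (horizontal axis) and surgery group (colour and symbol), with a bar at each group mean. Blue squares, sham weight-matched, lie above red triangles, VSG, for Dbp in each region, and below them for Tmem252 in the duodenum and ileum.

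Tef, the second PAR bZIP activator, also had its highest mean in weight-matched mice in each region, with more overlap between groups than Dbp. In the colon, Tef was 61.7, 61.3, 54.5, 34.7 and 37.2 CPM in the 5 sham ad libitum libraries, 79.05, 72.4, 111, 77.8 and 75.3 CPM in the 5 sham weight-matched libraries and 38.3 to 53.6 CPM with a median of 43.2 CPM in the 6 VSG libraries, so that the weight-matched libraries stood above all others. In the duodenum, its ranges were 27.9 to 45.4 CPM ad libitum, 39.4 to 92.1 CPM weight-matched and 21.7 to 39.9 CPM in VSG mice, and in the ileum 24.5 to 41.05, 40.7 to 74.4 and 19.4 to 46.5 CPM. The groups overlapped in both of these regions. The log2 fold change of Tef was -0.79 ± 0.12 between VSG and weight-matched mice and 0.67 ± 0.12 between weight-matched and ad libitum mice.

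Hlf, the third PAR bZIP activator, was close to the limit of detection. It had 0 to 59 counts per library and at most 8.53 CPM, which was in the duodenum library of mouse 27, and was at 0 counts in 7 libraries. A count of 0 allows a level of up to 3 counts in that library, which covers counting error only. Its log2 fold change was -1.13 ± 0.46 between VSG and weight-matched mice, and -0.88 ± 0.46 without that library.

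Nfil3, the D-box repressor, moved the opposite way to Dbp, and most clearly in the colon. There Nfil3 was 3.77, 5.39, 5.90, 8.45 and 4.76 CPM in the 5 sham ad libitum libraries, 2.59, 2.73, 0.768, 2.05 and 0.757 CPM in the 5 sham weight-matched libraries and 4.77 to 12.1 CPM with a median of 9.47 CPM in the 6 VSG libraries. The weight-matched libraries lay below all libraries of the other groups in the colon, at 4 to 21 counts each. In the duodenum the ranges were 4.94 to 11.2 CPM ad libitum, 5.35 to 9.67 CPM weight-matched and 6.93 to 12.4 CPM in VSG mice, and in the ileum 7.96 to 21.9, 3.53 to 13.3 and 6.17 to 21.1 CPM. All 3 groups overlapped in the duodenum and in the ileum. Its log2 fold change was 1.26 ± 0.19 for VSG against weight-matched mice, -0.90 ± 0.20 for weight-matched against ad libitum mice and 0.36 ± 0.18 for VSG against ad libitum mice.

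The transcripts of Nfil3 and Dbp were set against each other within each library as the log2 ratio of their CPM (Nfil3 to Dbp, 0.5 CPM added to each). In the duodenum this ratio was 0.06 ± 0.57 ad libitum, -1.42 ± 0.87 weight-matched and 0.23 ± 0.34 in VSG mice (SD, n = 5, 5 and 6). In the ileum it was 0.63 ± 0.94, -1.73 ± 0.76 and 0.98 ± 1.07, and in the colon -2.19 ± 0.74, -5.15 ± 0.93 and -1.18 ± 0.83. The colon ratios of the weight-matched mice, from -6.62 to -4.46, did not overlap those of the ad libitum mice, from -3.11 to -1.12, or of the VSG mice, from -2.27 to -0.22. Both genes were chosen on the difference between VSG and weight-matched mice, in opposite directions, so this separation restates that choice. How often ratios of other gene pairs separate in this way was not computed.

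Nr1d1, encoding REV-ERBα, was lower in VSG than in weight-matched mice, like Dbp. In the duodenum, Nr1d1 was 28.1, 24.4, 29.2, 29.2 and 44.7 CPM in the 5 sham ad libitum libraries, 41.2, 43.6, 105, 31.6 and 33.1 CPM in the 5 sham weight-matched libraries and 15.9 to 27.7 CPM with a median of 19.8 CPM in the 6 VSG libraries. The weight-matched value of 105 CPM was that of mouse 27, and the other 4 weight-matched libraries still lay above all VSG libraries. In the ileum its ranges were 24.5 to 43.5 CPM ad libitum, 39.2 to 81.5 CPM weight-matched and 19.04 to 41.4 CPM in VSG mice, with 1 weight-matched library inside the VSG range. In the colon, Nr1d1 was 84.3, 77.6, 63.7, 58.7 and 47.6 CPM in the 5 sham ad libitum libraries, 110.3, 124, 118, 94.2 and 102 CPM in the 5 sham weight-matched libraries and 40.2 to 76.2 CPM with a median of 53.3 CPM in the 6 VSG libraries, and the weight-matched libraries stood above all others. Averaged over regions, the log2 fold change was -1.15 ± 0.14 for VSG against weight-matched mice, or -1.01 ± 0.12 without the duodenum library of mouse 27. It was 0.76 ± 0.14 for weight-matched against ad libitum mice and -0.39 ± 0.14 for VSG against ad libitum mice.

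Nr1d2, encoding REV-ERBβ, had the same pattern in a narrower range. In the ileum, Nr1d2 was 27.2, 23.3, 23.9, 21.3 and 32.5 CPM in the 5 sham ad libitum libraries, 41.9, 36.3, 41.2, 37.95 and 35.1 CPM in the 5 sham weight-matched libraries and 18.5 to 32.2 CPM with a median of 25.6 CPM in the 6 VSG libraries. In the colon it was 53.3, 39.7, 46.8, 50.5 and 34.7 CPM in the 5 sham ad libitum libraries, 59.7, 55.9, 61.8, 55.3 and 55.9 CPM in the 5 sham weight-matched libraries and 27.1 to 48.6 CPM with a median of 31.5 CPM in the 6 VSG libraries. Weight-matched libraries lay above all others in these 2 regions, whereas in the duodenum 1 weight-matched library, at 29.2 CPM, fell within the VSG range of 22.7 to 31.5 CPM. The log2 fold change was -0.70 ± 0.093 for VSG against weight-matched mice and 0.47 ± 0.098 for weight-matched against ad libitum mice.

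The Dec repressor genes differed less between the surgery groups. Bhlhe40 was 103 ± 12.99 CPM ad libitum, 136 ± 45.2 CPM weight-matched and 111 ± 11.1 CPM in VSG mice in the colon (mean ± SD, n = 5, 5 and 6), and its log2 fold change between VSG and weight-matched mice over the 3 regions was -0.21 ± 0.15. In the duodenum, the Bhlhe40 difference turned from -0.21 ± 0.27 to 0.22 ± 0.25 without the library of mouse 27. Bhlhe41 was rare outside the colon, at 0 to 20 counts per library in the duodenum and ileum, and its log2 fold change between VSG and weight-matched mice was -0.77 ± 0.34.

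Tmem252 was higher in VSG than in weight-matched mice. In the duodenum, Tmem252 was 10.2, 11.04, 7.30, 9.23 and 12.2 CPM in the 5 sham ad libitum libraries, 6.54, 8.69, 7.08, 7.30 and 5.14 CPM in the 5 sham weight-matched libraries and 9.86 to 18.2 CPM with a median of 13.7 CPM in the 6 VSG libraries. In the ileum, it was 11.8, 15.99, 10.1, 10.8 and 11.7 CPM in the 5 sham ad libitum libraries, 11.7, 6.79, 6.53, 9.77 and 7.19 CPM in the 5 sham weight-matched libraries and 11.9 to 20.99 CPM with a median of 16.6 CPM in the 6 VSG libraries. In the colon, its ranges were 6.98 to 18.4 CPM ad libitum, 4.03 to 10.7 CPM weight-matched and 10.5 to 22.01 CPM in VSG mice. VSG and weight-matched libraries did not overlap in the duodenum or in the ileum, and in the colon 1 weight-matched library, at 10.7 CPM, lay just above the lowest VSG library, at 10.5 CPM. The log2 fold change was 1.03 ± 0.13 for VSG against weight-matched mice, -0.65 ± 0.14 for weight-matched against ad libitum mice and 0.38 ± 0.13 for VSG against ad libitum mice.

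Counted over the 9 genes, 6 passed edgeR's test at an adjusted p of 0.05 between VSG and weight-matched mice, the comparison that selected them, where 0.245% of all tested genes did. Dbp, Tef, Nr1d1 and Nr1d2 were lower and Nfil3 and Tmem252 higher in VSG mice, while Hlf, Bhlhe40 and Bhlhe41 did not pass. Nr1d2, at a log2 fold change of -0.70, was the smallest difference inside the threshold, and Bhlhe41 and Hlf, at -0.77 and -1.13 with larger standard errors, lay outside it. Between weight-matched and ad libitum mice 5 of the 9 passed, Dbp, Tef, Nr1d1 and Nr1d2 higher and Tmem252 lower in weight-matched mice, where 0.0529% of all genes passed. These 2 comparisons share the weight-matched libraries, so both counts restate the choice of the genes and nothing is read from their excess over all genes. Between VSG and ad libitum mice, none of the 9 passed in edgeR or DESeq2, and 0% of all genes passed in edgeR. This comparison shares the VSG libraries with the selecting one. An unadjusted p under 0.05 in edgeR was found for 3 of the 9 and for 837 of the 15126 tested genes. The main fit takes the libraries of a mouse from several regions as independent. When counts were summed over the regions of each of the 15 mice with all 3, the counts were 4 and 0 of 9 in place of 6 and 5. Without the duodenum library of mouse 27 the second count was 3, as it was in voom with a random mouse block, and it fell to 1 without mouse 27 or without mouse 24.

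**Figure D2:**
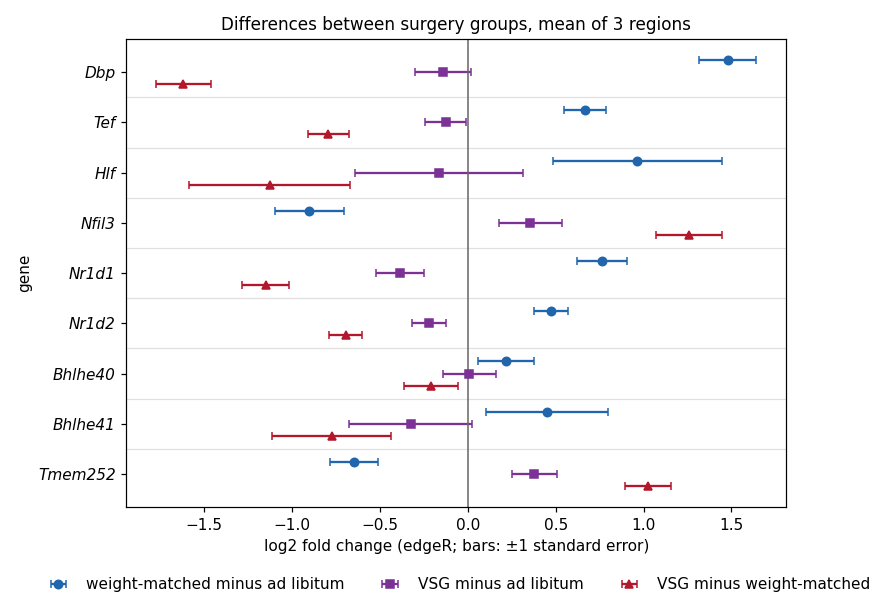
Log2 fold change (horizontal axis, edgeR, mean of the 3 regions) of each gene for weight-matched minus ad libitum, VSG minus ad libitum and VSG minus weight-matched mice, with bars of 1 standard error. For Dbp the points lie at 1.48, -0.14 and -1.62 and for Nfil3 at -0.90, 0.36 and 1.26, and the comparisons share libraries pairwise.

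Within single regions, 4 of the 9 genes passed between VSG and weight-matched mice in the duodenum (Nr1d1, Dbp, Tmem252 and Nr1d2), against 0.225% of all genes, 2 in the ileum (Dbp and Nr1d1), against 0.0463%, and 4 in the colon (Dbp, Nfil3, Tmem252 and Nr1d2), against 0.0595%. None of the 4 in the duodenum passed without the library of mouse 27, where the log2 fold change of Dbp went from -1.35 ± 0.27 to -1.01 ± 0.26, that of Nr1d1 from -1.30 ± 0.24 to -0.86 ± 0.21 and that of Tmem252 remained at 1.02. These are again the libraries that selected the genes, and the counts are a description only. By ranges of CPM, VSG and weight-matched libraries did not overlap for 3 of the 9 in the duodenum (Dbp, Nr1d1 and Tmem252), 3 in the ileum (Dbp, Nr1d2 and Tmem252) and 5 in the colon (Dbp, Tef, Nfil3, Nr1d1 and Nr1d2), against 0.529%, 0.549% and 0.443% of all genes. Weight-matched and ad libitum libraries did not overlap for 1, 2 and 5 of the 9, against 0.496%, 1.51% and 0.456%. Between VSG and ad libitum libraries every one of the 9 overlapped in every region, where 0.542%, 0.549% and 0.410% of all genes did not.

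The size of the difference between VSG and weight-matched mice was compared between regions with an interaction test, which does not use the average over regions. Nfil3 had the widest span, with log2 fold changes of 0.44 ± 0.31, 1.02 ± 0.31 and 2.31 ± 0.36 for duodenum, ileum and colon, and did not pass the interaction test in edgeR with adjustment over all genes. Dbp was -1.35 ± 0.27, -1.66 ± 0.27 and -1.84 ± 0.26 in the same order and did not pass either. In edgeR 0 of the 9 genes passed the interaction test, and 0% of all genes passed. An unadjusted p under 0.05 was found for 1 of the 9 (Nfil3) and for 649 of the 15126 tested genes. A limma voom fit with the mouse as a block also gave 0 of 9.

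**Figure D3:**
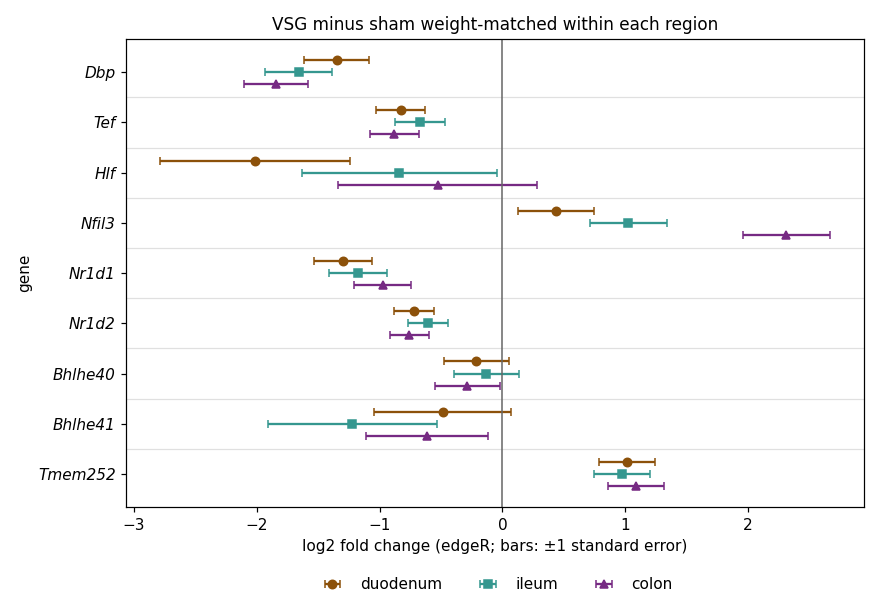
Log2 fold change (horizontal axis, edgeR) of VSG minus weight-matched mice for each gene within the duodenum, ileum and colon, with bars of 1 standard error. Nfil3 spreads from 0.44 in the duodenum to 2.31 in the colon, whereas the Tmem252 points lie between 0.98 and 1.09.

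Differences between gut regions were not used to select the genes and were tested over the 16 libraries of each region, averaged over the surgery groups. Most of the 9 were higher in the colon, and Nfil3 was lower there. Between colon and duodenum, 7 rose and 1 (Nfil3) fell, 8 of 9 where 55.0% of all genes passed, and between colon and ileum 6 rose and 1 (Nfil3) fell, 7 of 9 where 49.2% of all genes passed. Between ileum and duodenum 1 of 9 passed, where 33.8% of all genes did. So many genes differ by region that these counts say little about the 9 as a set, and the single genes are given here.

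Among the PAR bZIP genes, Dbp rose from 12.2 ± 8.45 CPM in the duodenum and 12.6 ± 8.21 CPM in the ileum to 40.7 ± 29.7 CPM in the colon (mean ± SD, n = 16 each). The spread within a region holds the surgery groups. Its log2 fold change was 1.68 ± 0.16 for colon against duodenum and 1.67 ± 0.16 for colon against ileum (edgeR, adjusted p = 5.09e-13 and 1.58e-12), and 0.02 ± 0.16 between ileum and duodenum, which did not pass. Tef rose by 0.48 and 0.54 in the colon on the log2 scale (edgeR, adjusted p = 0.000527 and 0.000141). Hlf did not pass between any regions, at -0.87 ± 0.47 for colon against duodenum, although it passed in a limma voom fit that took the mouse as a random block (log2 fold change -0.98, adjusted p = 0.0488) and without the ileum and colon libraries of mouse 12 (-1.31, edgeR adjusted p = 0.0203).

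Nfil3 went from 8.50 ± 2.25 CPM in the duodenum and 11.9 ± 5.64 CPM in the ileum to 5.70 ± 3.58 CPM in the colon. Its log2 fold change was -0.89 ± 0.19 for colon against duodenum and -1.30 ± 0.19 for colon against ileum (edgeR, adjusted p = 8.38e-05 and 1.16e-07). This is an average over the surgery groups. From duodenum to colon the mean of Nfil3 went from 7.22 ± 1.97 to 1.78 ± 0.962 CPM in weight-matched mice and from 8.31 ± 2.36 to 5.65 ± 1.75 CPM in ad libitum mice. In VSG mice it went from 9.73 ± 2.01 to 8.999 ± 2.60 CPM (SD, n = 5, 5 and 6 per region). The ranges of both regions overlapped in VSG and in ad libitum mice (4.94 to 11.2 and 3.77 to 8.45 CPM in the latter). They did not in weight-matched mice (5.35 to 9.67 and 0.757 to 2.73 CPM). The interaction test given above, which covers the VSG and weight-matched groups, did not pass for Nfil3. Nor did the same tests of either of these groups against ad libitum mice, where 0 of the 9 passed.

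Nr1d1 rose from 33.4 ± 21.1 CPM in the duodenum and 41.3 ± 18.96 CPM in the ileum to 75.97 ± 27.4 CPM in the colon, a log2 fold change of 1.21 ± 0.14 and 0.90 ± 0.14 (edgeR, adjusted p = 2.64e-10 and 3.78e-07). Between ileum and duodenum it did not pass, at 0.31 ± 0.14 (edgeR, adjusted p = 0.0792), but did so with the mouse as a random or a fixed block (0.35 in both fits, adjusted p = 0.0274 and 0.0257 in voom and edgeR) and without the duodenum library of mouse 27 (0.46, edgeR adjusted p = 0.00158). Nr1d2 rose in the colon by 0.43 and 0.61 against duodenum and ileum (edgeR, adjusted p = 0.000152 and 4.8e-07).

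Bhlhe41, encoding DEC2, showed the widest difference between regions of the 9. It was 1.44 ± 0.654 CPM in the duodenum, 0.706 ± 0.755 CPM in the ileum and 8.37 ± 3.40 CPM in the colon. Every colon library, from 3.49 CPM, was above every duodenum and ileum library, which reached 2.84 CPM. The log2 fold change was 2.53 ± 0.32 for colon against duodenum, 3.66 ± 0.36 for colon against ileum and -1.13 ± 0.37 for ileum against duodenum (edgeR, adjusted p = 2.34e-09, 2.76e-12 and 0.0146). Bhlhe40, encoding DEC1, rose from 52.3 ± 22.6 and 56.5 ± 15.7 CPM to 116 ± 28.7 CPM in the colon, by 1.14 and 1.04 on the log2 scale (edgeR, adjusted p = 2.91e-08 and 3.23e-07). Tmem252 was 10.6 ± 3.72, 12.6 ± 4.22 and 13.3 ± 5.35 CPM, and its colon against duodenum difference of 0.32 ± 0.13 (edgeR, adjusted p = 0.0350) did not pass with the mouse as a block (adjusted p = 0.101 in voom and 0.0883 in edgeR).

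**Figure D4:**
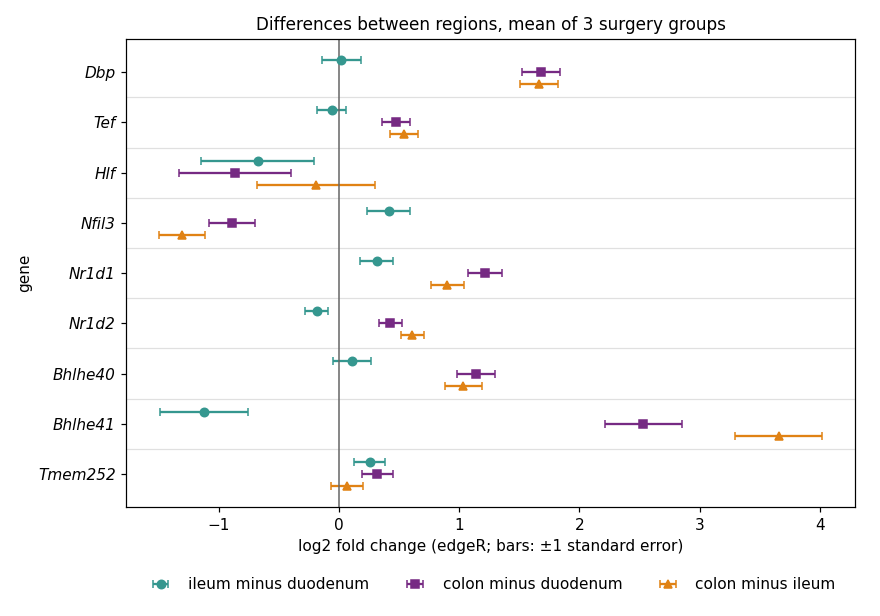
Log2 fold change (horizontal axis, edgeR, mean of the 3 surgery groups) of each gene between regions, with bars of 1 standard error. Bhlhe41 lies farthest to the right, at 2.53 and 3.66 for the colon contrasts, and Nfil3 is left of 0, at -0.89 and -1.30.

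Per kilobase of annotated exon, which allows levels of different genes to be set side by side, the order in the colon was Nr1d1 and Bhlhe40 (24.7 CPM per kb each), Dbp (13.6), Nr1d2 (8.29), Tef (7.43), Nfil3 (2.81), Tmem252 (2.64), Bhlhe41 (1.25) and Hlf (0.122). In the duodenum the same scale gave Bhlhe40 11.1, Nr1d1 10.8, Nr1d2 6.19, Tef 5.29, Nfil3 4.20, Dbp 4.07, Tmem252 2.10, Hlf 0.266 and Bhlhe41 0.214 CPM per kb. These orders pool the surgery groups. Dbp ranked above Nr1d2, Tef and Nfil3 in the colon of each surgery group. In the duodenum it ranked below all 3 in ad libitum and VSG mice, whereas in weight-matched mice it was 7.10 CPM per kb, above Nfil3 (3.56) and level with Tef (7.11). Nfil3 was below Tmem252 in the colon of weight-matched (0.878 and 1.55) and ad libitum mice (2.79 and 2.90) and above it only in VSG mice (4.44 and 3.34). Neighbours such as Nr1d1 and Bhlhe40 in the colon, or Nfil3 and Dbp in the duodenum, differed by less than the spread between libraries.

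Other epithelial signals also differed between regions in these sorted cells. The summed level of 4 colonocyte markers was 448 to 1678 CPM in the colon and 20.7 to 164 CPM in the duodenum, and that of 5 goblet markers was 2801 to 13690 CPM in the colon and 2532 to 5761 CPM in the duodenum. Of the goblet markers, Muc2, Clca1 and Zg16 were higher in the colon, Tff3 was lower (-0.77 ± 0.23), and Fcgbp, much of the sum, did not pass. Enterocyte markers went the other way, at 233 to 596 CPM in the colon and 4384 to 36940 CPM in the duodenum. So did the crypt markers, at 54.2 to 244 and 444 to 1948 CPM. The part of these signals in the region differences of the 9 genes was not tested. Library index, too, was largely shared within a region: 12 of 16 duodenum libraries carried 1 index value and 11 of 16 colon libraries another. With index as a covariate only Dbp (1.52), Nr1d1 (0.81) and Bhlhe41 (2.93) of the 9 still passed between colon and duodenum, and none between ileum and duodenum, while 7 still passed between colon and ileum.

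Whether the genes vary together among mice of the same group was tested on deviations from the 9 group means, averaged over the regions of each mouse, so that the surgery differences that selected the genes are removed. Mice with more Dbp than others of their group also had more Tef, Nr1d1, Bhlhe40, Nr1d2 and Hlf and less Nfil3. Over 17 mice the correlation with Dbp was r = 0.871 for Tef (rho 0.811), 0.866 for Nr1d1 (rho 0.743), 0.808 for Bhlhe40 (rho 0.821), 0.758 for Nr1d2 (rho 0.797), 0.756 for Hlf (rho 0.706) and -0.627 for Nfil3 (rho -0.596). A two-sided permutation test within surgery groups, adjusted over the 8 relations computed, gave adjusted p = 0.00044, 0.00044, 0.00056, 0.00328, 0.00316 and 0.0153 for r (unadjusted 0.00011, 8e-05, 0.00021, 0.00205, 0.00158 and 0.0114) and 0.00208, 0.00338, 0.00184, 0.00291, 0.00789 and 0.0228 for rho. Tmem252, at r = -0.511 and rho = -0.488, and Bhlhe41, at r = 0.226 and rho = 0.267, did not pass (permutation, adjusted p = 0.0612 and 0.411 for r). The same test was not run over the other genes, so the share of all genes that varies with Dbp as closely is not known.

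The sign of the deviation was shared with Dbp in 12 of 17 mice for Tef, 13 for Nr1d1, Bhlhe40 and Hlf and 16 for Nr1d2, and was opposite in 13 for Nfil3. Leaving out mice 18 and 27, which lay farthest from the median of Dbp, the correlation was 0.801 for Tef, 0.756 for Nr1d1, 0.797 for Bhlhe40, 0.614 for Nr1d2, 0.737 for Hlf and -0.501 for Nfil3. In single regions, over 16 mice each, Tef (r = 0.869, 0.760 and 0.647 in duodenum, ileum and colon) and Nr1d1 (0.771, 0.775 and 0.660) passed in all 3 by the same permutation test, while Bhlhe40, Nr1d2, Hlf and Tmem252 passed in the colon only and Nfil3 in none (-0.229, -0.564 and -0.472). Tmem252 had r = -0.603 in the colon alone (permutation adjusted p = 0.0342), and over all regions it passed without mouse 11, 12 or 18 (permutation adjusted p = 0.0475, 0.0315 and 0.0402). Without the duodenum library of mouse 27, the 6 genes that passed still did, with r from 0.715 to 0.850 and -0.608 for Nfil3. Nfil3 did not pass without mouse 24 (r = -0.545, permutation adjusted p = 0.0659).

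**Figure D5:**
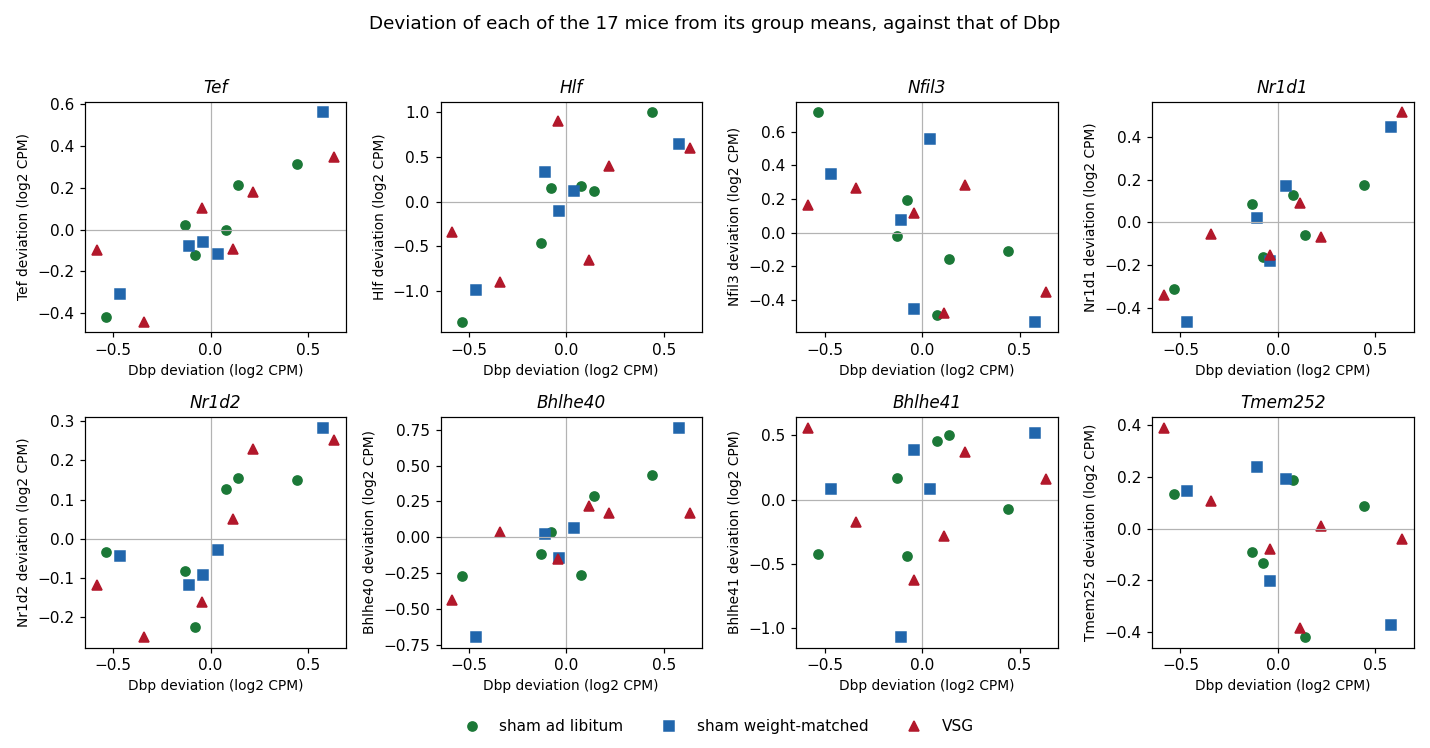
Deviation of each of the 17 mice from its group means in log2 CPM, for Dbp (horizontal axis) and each of the other 8 genes (vertical axis), with colour and symbol for the surgery group. Points rise from lower left to upper right for Tef (r = 0.871) and Nr1d1 (r = 0.866) and fall for Nfil3 (r = -0.627).

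Of 16 listed core clock genes, 15 were tested, and 2 passed between VSG and weight-matched mice, where 0.245% of all tested genes did. Both were higher in VSG mice: Arntl, encoding BMAL1 (0.84 ± 0.13), and Npas2, a partner of BMAL1 (0.53 ± 0.11). Between weight-matched and ad libitum mice, Arntl alone passed, at -0.98 ± 0.13, where 0.0529% of all genes passed. Between VSG and ad libitum mice none of the core clock genes did in edgeR. The median log2 fold change of the 15 was -0.07, 0.01 and -0.04 in these comparisons, against 0.002, 0.007 and 0.008 over all tested genes. In the colon, Arntl was 32.99 ± 14.2 CPM ad libitum, 12.7 ± 4.56 CPM weight-matched and 30.5 ± 7.74 CPM in VSG mice (mean ± SD, n = 5, 5 and 6).

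Set against Nr1d1, whose product represses Arntl, the log2 ratio of Arntl to Nr1d1 CPM was -0.45 ± 0.52 ad libitum, -1.67 ± 0.85 weight-matched and 0.10 ± 0.44 in VSG mice in the duodenum, -0.03 ± 0.42, -1.81 ± 0.34 and 0.01 ± 0.60 in the ileum and -1.06 ± 0.79, -3.15 ± 0.75 and -0.86 ± 0.65 in the colon. The weight-matched libraries had the lowest mean in each region. Nr1d1 was chosen on its difference between VSG and weight-matched mice, so a low ratio in weight-matched mice in part restates that choice. Repression of Arntl by REV-ERBα was not tested. Among genes listed as repressed by REV-ERB, Nfil3, Arntl and Npas2 passed between VSG and weight-matched mice, all higher in VSG mice, and Clock (-0.07 ± 0.068) and Cry1 (0.53 ± 0.13) did not. Nfil3 is one of the 9 genes, so its place in this count was fixed by the selection. Arntl and Npas2 are the same genes that passed among the core clock genes above.

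Of 10 listed D-box and clock output genes, none passed between any 2 surgery groups in edgeR, with a median log2 fold change of -0.38 between VSG and weight-matched mice and 0.30 between weight-matched and ad libitum mice. Per2 (-0.32 ± 0.12) and Per3 (-0.44 ± 0.15), period genes with D-boxes, Ciart (-1.34 ± 0.44), a clock repressor with the largest difference of the list, Usp2 (-0.60 ± 0.20), a clock-controlled deubiquitinase, Abcb1a (-0.50 ± 0.17) and Slc15a1 (-0.45 ± 0.16) are named after their values were seen and did not pass between VSG and weight-matched mice, nor did Per1 (0.01 ± 0.13). Between colon and duodenum, 7 of the 10 passed, 4 higher and 3 lower, where 55.0% of all genes passed, led by Slc15a1, the peptide transporter PEPT1 (-1.53 ± 0.17), Por, cytochrome P450 reductase (-0.64 ± 0.077), and Abcb1a, a drug efflux pump (0.83 ± 0.17). Among the core clock genes the region difference was led by Rora, a nuclear receptor that activates through the element REV-ERB binds, at 2.94 ± 0.21 between colon and duodenum (edgeR, adjusted p = 2.44e-16).

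Over the 48 libraries, with group means removed, the genes whose deviations were most like those of Dbp among 10621 genes with a mean of at least 5 CPM were Tef (r = 0.759), Nr1d1 (0.732), Per1 (0.657), Odr4 (0.656) and Itpr2 (0.652), and those most opposite were Zfp266 (-0.676), Ccdc117 (-0.658), Ceacam10 (-0.611), Zfp207 (-0.607) and Pck2 (-0.591). For Nfil3 they were Tap1 (0.504), Bet1l (0.480) and Psme1 (0.473) against Rnf25 (-0.544), Cdc42ep4 (-0.532) and Hif1a (-0.508), and for Tmem252 Hist1h2bk (0.612), Hist1h3i (0.564) and Sap18 (0.546) against Foxa2 (-0.558), Hif1a (-0.554) and Zfp758 (-0.542). These are descriptions over libraries that share mice and depth.

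Dbp and Nr1d1 overlap genes on the other strand, and the sources used here do not say whether counting used the strand. On GRCm38, Dbp lies at chr7:45705088-45710203 on the plus strand, and 18% of its exonic bases are also exonic in Sphk2, while Nr1d1 lies at chr11:98767932-98775333 on the minus strand and shares 8.55% with Thra. Sphk2, a sphingosine kinase gene, differed by -0.18 ± 0.083 and Thra, a thyroid hormone receptor gene, by -0.15 ± 0.072 between VSG and weight-matched mice. In the colon, where Dbp ranged from 12.6 to 124 CPM, Sphk2 ranged from 40.1 to 58.3 CPM. Bhlhe41 shares 19% of its exonic bases with the predicted gene Gm43909, and the other 6 share at most 2.51% with another gene.

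Markers of other cell types were checked beside the surgery differences. Of the 7 enterocyte markers, Sis, which encodes sucrase-isomaltase, passed between VSG and weight-matched mice (-0.66 ± 0.14), and the median of the 7 was -0.57. Their summed level was 4925 to 36940 CPM in weight-matched and 4384 to 6090 CPM in VSG duodenum. In the same order it was 4141 to 12010 and 3450 to 12020 CPM in the ileum, and 307 to 421 and 233 to 538 CPM in the colon. The part of enterocyte signal in the surgery differences of the genes described here was not tested. No marker of the enteroendocrine, colonocyte, goblet, Paneth, tuft, crypt, immune or stromal lists passed in edgeR between any 2 surgery groups averaged over the regions, and the 6 immune markers, of which 3 passed the filter on low counts, summed to at most 32.2 CPM, in the duodenum library of mouse 27.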

How the data were processed

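The authors deposited 1 table of raw, unnormalized counts per gene for 48 libraries of sorted NeuroD1-positive cells from 17 mice. Libraries came from a stranded total RNA kit. Per the labels' processing notes, the submitters used CASAVA, STAR 2.5.1 and the build GRCm38, and the strand setting of the counting is not given in the sources used here. Total counts were 4648651 to 17182463 per library.

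From these counts, the 15126 genes left by filterByExpr (edgeR 4.0.16, R 4.3.3) were scaled by TMM and fitted with a separate mean for each of the 9 combinations of surgery and region. Contrasts were tested by robust quasi-likelihood with Benjamini-Hochberg adjustment over those genes (threshold 0.05), and a standard error is |log2 fold change| over the root of F. CPM are TMM-scaled counts per 1000000. Co-variation used log2 CPM (prior count 2), deviations from group means and 100000 permutations of mice within surgery groups. The fits were tested on simulated data. GENCODE M21 gave exon overlaps and RefSeq the promoter windows, both on GRCm38.

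The 9 genes and all gene lists were chosen with earlier results of these data known. Of the genes listed as repressed by REV-ERB, 1 is not reported here. Named besides them were Sphk2 and Thra, up to 4 list genes of lowest p per contrast among those past the threshold, and the genes of highest and lowest correlation with Dbp (5 each), Nfil3 and Tmem252 (3 each). A permutation test over mice for weight-matched against ad libitum mice was computed and is not reported, since it shares libraries with the contrast that selected the genes.

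Alternatives were DESeq2 1.42.0 (size factors, or its Wald test), no filter, a filter of 10 counts in every library of a group, limma 3.58.1 voom with a random mouse block, an edgeR fit with a fixed one, counts summed per mouse, a library index covariate, and omission of the mouse 12 ileum and colon libraries, of the mouse 27 duodenum library or of each mouse. Leaving out the mouse 27 library in the co-variation was added after the data were seen. A mouse number marks the same animal in each region. Over 46 such pairs, deviations from group means correlated across 2000 genes with a median of 0.105 (-0.0201 to 0.389, 26 over 0.1), and voom estimated 0.128. No mouse belongs to more than 1 surgery group, so surgery contrasts are unpaired. The main fit has no mouse term, so a surgery contrast averaged over regions counts the libraries of a mouse as independent. Its standard errors and calls may therefore be too favourable, and the fit to counts summed per mouse is the one with a single value per mouse.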

Additional observations from a re-analysis of the deposited data

Results flagged for a closer look

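Within groups of 5 or 6 libraries, 81 groups (9 genes in 9 groups) were searched with Dixon's ratio for a library far from the others, and 4 were found, where chance alone gives about 1 in 20. Bhlhe41 in VSG duodenum was 0.150 CPM in mouse 22, against 1.25 CPM in the next library. Nr1d1 in weight-matched duodenum was 105 CPM in mouse 27, against 43.6 CPM in the next, and Tef in weight-matched colon was 111 CPM in the same mouse, against 79.05 CPM. Tmem252 in ad libitum colon was 6.98 CPM in mouse 13, against 14.5 CPM in the next. The duodenum library of mouse 27 also had the lowest enteroendocrine marker sum (11290 CPM), whereas the colon library of the same mouse had a sum of 30820 CPM, within the range of 28610 to 70590 CPM of its group. Their part in the Nr1d1 and Tef values was not tested.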

How the results depend on the processing

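Of the 9 genes, the 6 that passed between VSG and weight-matched mice kept their direction under every alternative of that comparison, and the count stayed at 6 except with counts summed per mouse (4), where Tef and Nfil3 did not pass. The count between weight-matched and ad libitum mice moved more. In place of 5 it was 3 without a filter, 3 with the mouse as a random replicate block, 3 without the duodenum library of mouse 27, 0 with counts summed per mouse, and 1 to 6 when a mouse was left out (1 without mouse 24 or mouse 27). Between ileum and duodenum the count of 1 became 2 with either replicate block or without the mouse 27 library, 0 with library index as a covariate, and 1 to 2 without a mouse. Between colon and duodenum 8 became 3 with library index, and 7 to 8 without a mouse. The co-variation count of 6 was 2 in the duodenum alone, 2 in the ileum alone, and 5 to 7 without a mouse. The replicate block moved no other count of the 9 by over 1.5 times.

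Signs reversed only in differences that had not passed. Between ileum and duodenum, Dbp became -0.002 without a filter, -0.047 without the mouse 12 libraries and -0.159 with library index, Tef 0.021 without the mouse 27 library, and Nr1d1 -0.086 and Bhlhe40 -0.458 with library index. Hlf between colon and ileum became 0.146 with library index, and between VSG and ad libitum mice 0.266 without the mouse 12 libraries and 0.116 with library index. Bhlhe40 between VSG and ad libitum mice became -0.017 with voom and the replicate block and -0.027 with counts summed per mouse. The correlation of Bhlhe41 with Dbp was -0.034 in the ileum alone. With a mouse left out, ranges that crossed 0 were -0.043 to 0.14 for Dbp between ileum and duodenum, -0.647 to 0.109 for Hlf and -0.004 to 0.167 for Tmem252 between colon and ileum, -0.347 to 0.033, -0.057 to 0.138 and -0.029 to 0.356 for Bhlhe40 in VSG against weight-matched, VSG against ad libitum and weight-matched against ad libitum mice, and -0.427 to 0.347 for Hlf in VSG against ad libitum mice. The causes were not tested.

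Over all genes, calls between VSG and weight-matched mice were 37, but 102 with DESeq2, 24 without a filter, 9 with voom and the replicate block, 5 with counts summed per mouse and 19 to 40 without a mouse. Between VSG and ad libitum mice they were 0, but 23 with DESeq2, 6 without the mouse 27 library, 4 with library index and 0 to 6 without a mouse. Between weight-matched and ad libitum mice they were 8, but 5 without a filter, 4 with voom, 0 with summed counts and 2 to 9 without a mouse. With library index, calls fell from 5110 to 1713 between ileum and duodenum and from 8322 to 4236 between colon and duodenum. Depth limits Hlf and, outside the colon, Bhlhe41 most.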
